A study of Mus musculus with 4 samples.

Results

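The genes described here encode the enzymes of the tricarboxylic acid (TCA) cycle and the enzymes that make or consume alpha-ketoglutarate (αKG). They were chosen by name, as genes of a list of 31 whose symbols were the gene name of a noncontrol probe. This rule uses no measured value, but the list was drawn up with earlier results of these data known. All 31 genes were found, among 34964 genes or transcripts on the array, and 43 of its 55681 noncontrol probes belonged to them. The list held 21 genes grouped as TCA cycle, 9 genes of the route from glutamine and glutamate to αKG, and 1 hydroxyglutarate dehydrogenase, D2hgdh. The TCA cycle group includes genes of the cytosolic enzymes Aco1, Idh1 and Mdh1, and of the pyruvate carboxylase Pcx, beside those of the mitochondrial cycle.

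The study asked what activation of the kinase AKT changes in cellular metabolism and in the epigenome while fibroblasts are reprogrammed to induced pluripotent stem cells. Mouse embryonic fibroblasts (MEFs) were taken from mixed male embryos of Oct4-EGFP transgenic mice at E13.5 (OE-MEFs), and all 4 groups carried this reporter. Retroviruses delivered Oct4, Sox2 and Klf4 (OSK), or OSK with AKT-MER (OSKA), which is myristoylated AKT fused to a modified estrogen receptor and becomes active when 4-hydroxytamoxifen (4OHT) binds. Addition of 4OHT or vehicle began 3 days postinfection (dpi), and RNA of the whole, unsorted culture was measured at 8 dpi on 1 single-colour Agilent array per group. The groups were OSK cells with no ligand, OSK cells given 4OHT, and OSKA cells that either received no 4OHT (AKT-nonactivated cells) or received it (AKT-activated cells). The free text attached to the AKT-activated sample calls its AKT-MER inactive, against its title and the design, and the title was followed. The share of infected cells was not analysed here.

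In the TCA cycle, acetyl-CoA condenses with oxaloacetate to citrate, which is rearranged and oxidised through isocitrate, αKG, succinyl-CoA, succinate, fumarate and malate back to oxaloacetate. Besides isocitrate oxidation, αKG arises when glutamate, made from glutamine by glutaminases, loses its amino group to glutamate dehydrogenase or to a transaminase that passes it to pyruvate, oxaloacetate, phosphohydroxypyruvate or a branched-chain keto acid. αKG leaves the mitochondrion to serve as a cosubstrate of dioxygenases, among them the TET enzymes that oxidise 5-methylcytosine and many histone demethylases, which are inhibited by succinate, fumarate and 2-hydroxyglutarate.

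A level on these arrays is what a probe of 60 bases binds. The first 30 bases of the probes behind the largest differences are shown so that the measured part of each transcript is known, with no base marked. Coordinates are those of the deposited files in NCBI37 (mm9) and span all 60 bases of each probe. The Gpt2 probe lay at chr8:88050856-88050915 on the plus strand. The probes of Bcat1 lay on the minus strand, at chr6:144952871-144952930, chr6:144948396-144948455 and chr6:144942376-144942435, and are listed in this order, which runs from the 5′ to the 3′ side of the gene. The probes of Glud1 lay on the plus strand at chr14:35157289-35157348 and chr14:35157940-35157999. Those of Mdh1, Pcx and Gls2 lay at chr11:21457280-21457339 on the minus strand, chr19:4621610-4621669 on the plus strand and chr10:127646830-127646889 on the plus strand. Whether a probe lies in coding or noncoding exon sequence was not analysed here.
Gpt2: gaaaaggtaccatgtgtgctcgctaggcat
Bcat1, 5′ probe: acgatggagaatggccccaagcttgcaagt
Bcat1, middle probe: gagcaggacactttgtttcttttgctggtg
Bcat1, 3′ probe: caatcgacacattcctcactgttggcaggt
Glud1, 5′ probe: tggcattttccaaaggtggcatggtcctca
Glud1, 3′ probe: tgaacaggaatgtcccacagaagtaccaga
Mdh1: agcaaaatattttaaatagtgtgtgcttta
Pcx: agagggaagacctaattcacaggtcctggg
Gls2: catgcatatgtatctgccgcagagtaagag

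Levels are log2 intensities minus the 75th percentile of the same array, so that 0 is the 75th percentile. Between 52.4% and 55.4% of noncontrol spots were well above background on each array, and the 75th percentile of intensity lay between 377 and 462. All 43 probes of the 31 genes were well above background on all 4 arrays. With 1 array per group there was no replicate, so no difference given here has a replicate check, no test was run and no p-value is given. For scale, the error model of the scanner software gave an error of 0.20 (log2) for the difference of most of these genes, and probes spotted 10 times on each array gave 0.095. Both errors describe the measurement on a single pair of arrays and leave out the variation between cultures. The brightest probe of Esr1, the estrogen receptor gene, was well above background on both OSKA arrays and on neither OSK array. A further Esr1 probe was well above background on the OSK array without 4OHT as well as on both OSKA arrays, and so did not separate the groups. Of the marker genes of fibroblasts, 10 of 10 were well above background on every array, and their summed intensity in units of the 75th percentile ranged from 1830 to 2052. The macrophage markers were also measured on every array (8 of 8), with summed values of 163 in OSK cells without and 219 with 4OHT, and of 219 in AKT-nonactivated and 193 in AKT-activated cells. The summed values of the epithelial markers were 15.8, 12.9, 9.98 and 8.42 in the same order, with Ocln not well above background on any array. Of the pluripotency markers, 7 of 10 were well above background on every array, with summed values of 6.22, 6.81, 6.29 and 4.94. Of the endothelial markers, 3 of 6 were, with summed values of 8.00, 11.9, 8.91 and 10.1. The pluripotency markers Zfp42, Esrrb and Dppa4 and the endothelial markers Cdh5, Tie1 and Emcn did not pass the background limit on any array. In RNA of a mixed culture, fewer cells of a type and less RNA per cell cannot be told apart.

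First, the genes as a whole were compared between AKT-activated and AKT-nonactivated cells, the contrast that switches AKT-MER on. Gpt2, Bcat1 and Mdh1 were at least 1.5-fold higher in AKT-activated cells, and Gls2 was at least 1.5-fold lower. These were 3 and 1 of 31 genes, whereas the shares among the 20363 genes measured on both arrays were 5.06% (higher) and 4.64% (lower). The differences of the other 27 genes lay between −0.39 (D2hgdh) and 0.47 (Pcx), and no gene of the list differed by 2-fold (all genes, 2.01% higher and 0.899% lower), from which nothing is read about the list. The median difference was 0.06 over the 31 genes and −0.03 over all genes. The values of all genes depend on the filter on dim probes. Without it their median was 0.06, level with the list, and 10.2% were at least 1.5-fold higher and 9.15% lower. The values of the list could not change, since all its probes passed the filter. A difference above 0 was found for 22 of 31 genes, against 45.2% of all genes. Among the genes whose mean level was at or above the 75th percentile, 3 of 27 genes of the list and 2.13% of all genes were at least 1.5-fold higher, and 0 of 27 and 1.87% were at least 1.5-fold lower. In the same contrast the epithelial markers had a median of 0.56, with 4 of 9 at least 1.5-fold higher and 1 lower. Their summed intensity went the other way, from 9.98 to 8.42, and Krt19, the brightest of them, differed by −0.96. The fibroblast markers had a median of 0.08, with 1 of 10 each way. The part of these markers in the values of the list was not tested. AKT activation, the ligand, the culture dish and the slide position all changed together in this contrast and cannot be told apart in it.

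**Figure D1:**
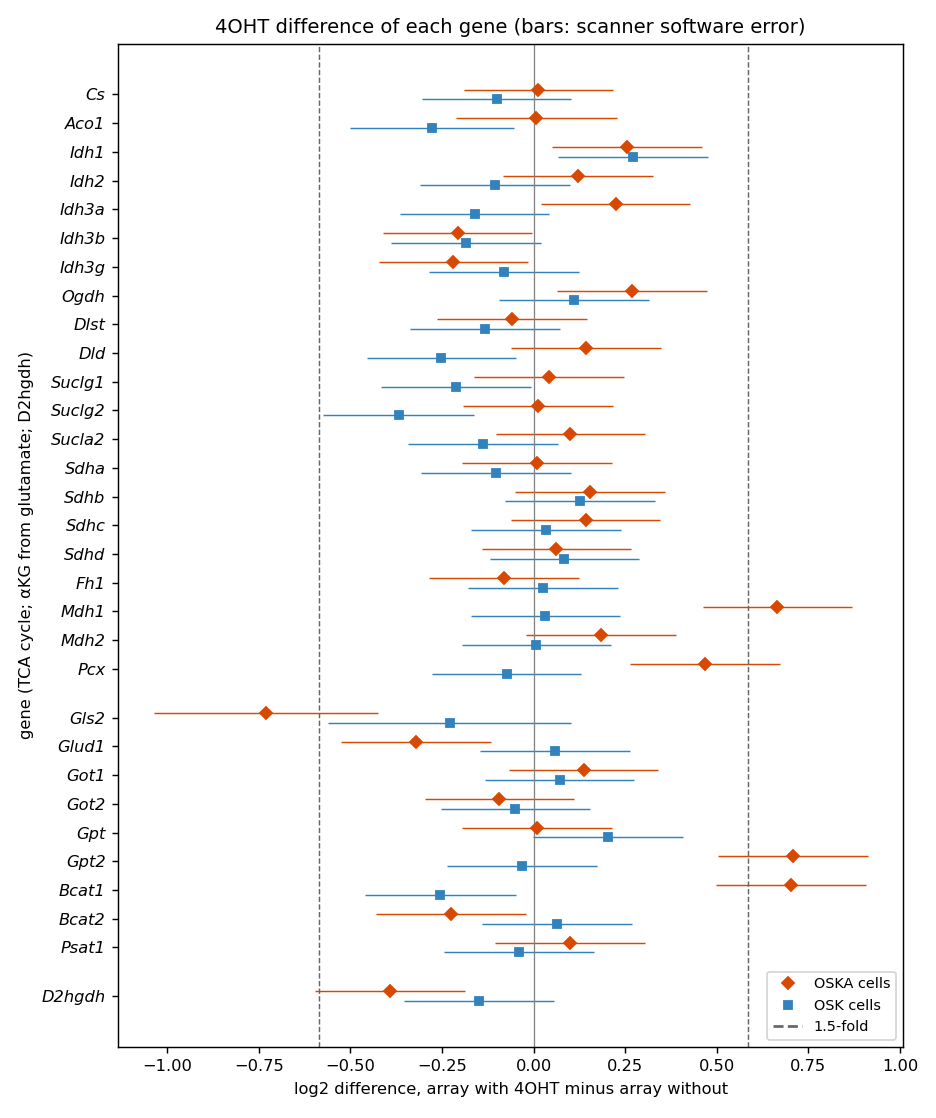
Log2 difference between the array with and the array without 4OHT for each of the 31 genes, in OSKA cells (diamonds) and OSK cells (squares), grouped as TCA cycle, αKG from glutamate and D2hgdh from top to bottom. Horizontal bars are the error given by the scanner software for a single pair of arrays, not replicate error, and dashed lines mark 1.5-fold. Gpt2 (0.71), Bcat1 (0.70) and Mdh1 (0.67) lie beyond the upper line and Gls2 (−0.73) beyond the lower line in OSKA cells, and no gene lies beyond either line in OSK cells.

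The 4OHT arrays of OSK cells show the values that go with the ligand when no fusion protein is present. None of the 31 genes was at least 1.5-fold higher or lower with 4OHT, against 4.35% and 1.64% of all 19927 genes measured. The differences ranged from −0.37 (Suclg2) to 0.27 (Idh1), with a median of −0.07 against −0.00 for all genes, and 12 of 31 genes (all genes, 49.4%) lay above 0. In the absence of 4OHT, OSKA and OSK cells also differed by less than 1.5-fold in all 31 genes (all genes, 5.67% higher and 3.98% lower). The median was −0.10 (all genes, −0.02), and 10 of 31 genes lay higher in OSKA cells (all genes, 47%). With 4OHT in both, 2 of 31 genes, Gpt2 and Bcat1, exceeded their OSK level by at least 1.5-fold in OSKA cells (all genes, 5.46%) and none was at least 1.5-fold lower (all genes, 5.1%). Here the median was 0.03 (all genes, −0.05), and 20 of 31 genes lay above 0 (all genes, 42.9%). The contrasts share arrays, so they are not separate evidence. With the arrays scaled to spike-in probes, the median of all genes was −0.31 for 4OHT in OSK cells, −0.46 for AKT-MER without 4OHT and −0.18 for AKT-MER with 4OHT. This scaling shifts all genes of an array by the same amount. The distance of the list's median from that of all genes (−0.07, −0.09 and 0.08) therefore could not change.

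The genes varied less over the arrays than the array at large. The range over the 4 arrays had a median of 0.28 for the 31 genes and 0.36 for the 19599 genes measured on all 4, with 27 of 31 and 14757 of 19599 genes ranging over less than 1.5-fold. For 11 genes this range was below the software's error of 0.20. The median of the mean levels was 3.32 over the list and 0.47 over all genes, and the part of signal strength in the narrower range was not tested. The array of AKT-activated cells was the highest of the 4 for 11 of 31 genes (all genes, 27.3%) and the lowest for 8 (all genes, 37.5%). It was at least 1.5-fold above each other array for 2 of 31 genes, Gpt2 and Bcat1 (all genes, 2.42%), and at least 1.5-fold below each other array for 0 of 31 (all genes, 1.76%).

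**Figure D2:**
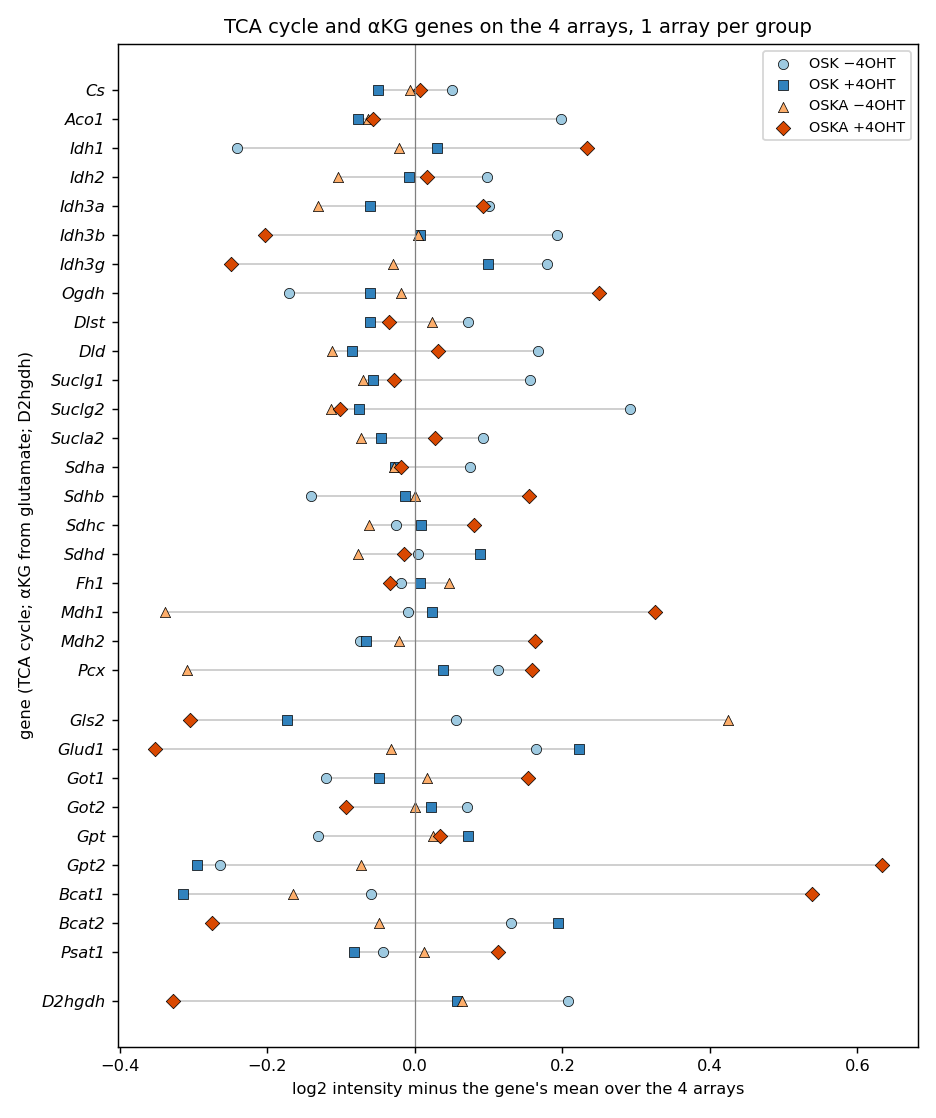
Log2 intensity of each gene on each of the 4 arrays minus the mean of that gene over the 4 arrays, with the genes grouped from top to bottom as TCA cycle, αKG from glutamate and D2hgdh. Circles and squares are OSK cells (no 4OHT, then 4OHT), triangles and diamonds are AKT-nonactivated and AKT-activated cells, and grey lines span the range. Gpt2 and Bcat1 have the diamond at the far right and apart from the rest, while 8 genes, Glud1, Bcat2, D2hgdh, Idh3b and Idh3g among them, have it at the far left.

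Among the transaminases, the 2 genes that stood apart were Gpt2 and Bcat1. Gpt2 encodes the mitochondrial alanine transaminase, which passes the amino group of glutamate to pyruvate and yields alanine and αKG. Its level was 0.00 in OSK cells without 4OHT, −0.03 in OSK cells with 4OHT, 0.19 in AKT-nonactivated cells and 0.90 in AKT-activated cells. The array of AKT-activated cells was thus high, 0.71 above the highest of the others, which spanned 0.22. It was 1.63-fold higher in AKT-activated than in AKT-nonactivated cells, 1.90-fold higher than in OSK cells with 4OHT, and differed by −0.03 (log2) with 4OHT in OSK cells. Gpt, the cytosolic alanine transaminase, lay at −0.07, 0.13, 0.08 and 0.09 in the same order. Its AKT-activated and AKT-nonactivated levels differed by 0.01, and its lowest array was that of OSK cells without 4OHT.

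Bcat1 encodes the cytosolic branched-chain aminotransferase, which exchanges the amino group of leucine, isoleucine or valine with that of glutamate and uses or yields αKG according to its direction. Its 3′ probe, which stands for the gene, gave 0.23 and −0.02 in OSK cells without and with 4OHT, 0.13 in AKT-nonactivated cells and 0.83 in AKT-activated cells. The middle probe gave −0.23, −0.67, −0.39 and 0.31 and the 5′ probe −1.15, −1.66, −1.43 and −0.74 in the same order. All 3 probes were highest in AKT-activated cells and lowest in OSK cells with 4OHT. The difference between AKT-activated and AKT-nonactivated cells was 0.70 with each of the 3 probes, and in OSK cells the difference with 4OHT was −0.25, −0.45 and −0.52 from the 3′ to the 5′ probe. With 4OHT in both, OSKA cells exceeded OSK cells by 0.85, 0.98 and 0.93. Against OSK cells without 4OHT, the highest of the other arrays, AKT-activated cells lay 0.60 higher with the 3′ probe, just past 1.5-fold, and less than 1.5-fold higher with the middle and 5′ probes. Bcat2, the mitochondrial branched-chain aminotransferase, showed another order, with 1.16, 1.22, 0.98 and 0.76. AKT-activated cells were lowest for Bcat2, 0.23 below AKT-nonactivated cells and 0.47 below OSK cells with 4OHT (both under 1.5-fold).

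**Figure D3:**
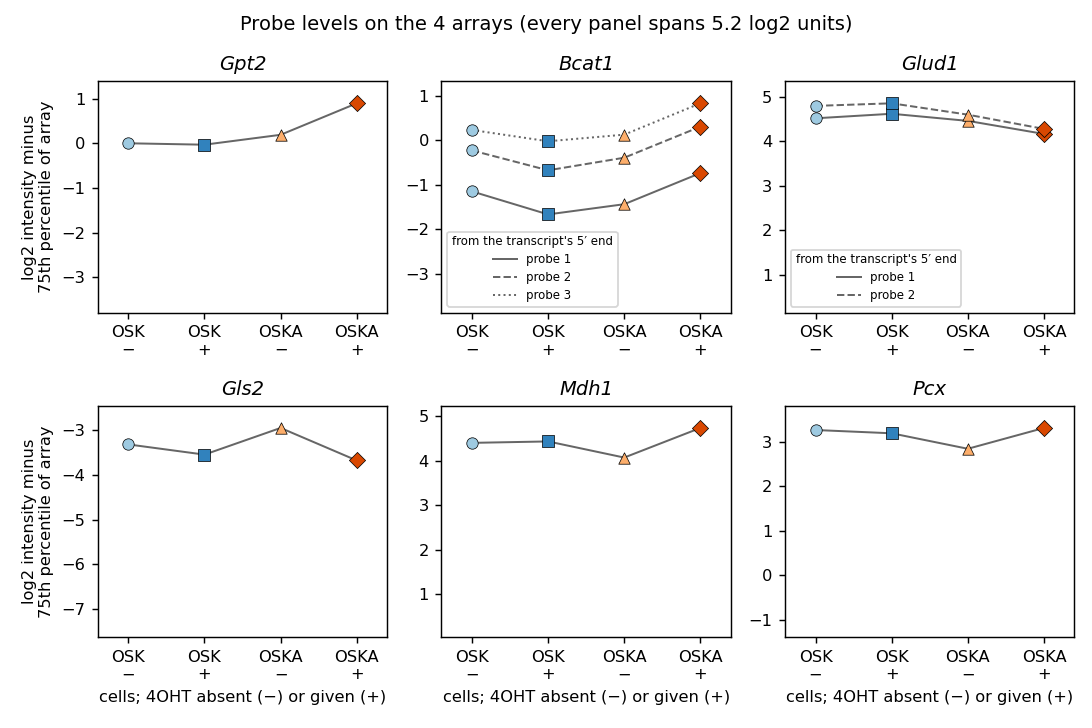
Level (log2 intensity minus the 75th percentile of the array) of every probe of 6 genes on the 4 arrays, with OSK cells at the left and OSKA cells at the right of each panel, and with 4OHT absent (−) or given (+). Grey lines join the values of one probe, probes of one gene are numbered from the 5′ end, and every panel spans the same number of log2 units. The AKT-activated array is highest for Gpt2 and for all 3 probes of Bcat1, lowest for both probes of Glud1 and for Gls2, and highest for Mdh1 and Pcx, where the AKT-nonactivated array is lowest.

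The aspartate transaminases and the serine-pathway transaminase stayed close together over the arrays. Got1, the cytosolic aspartate transaminase, lay at 2.70, 2.77, 2.84 and 2.97 from OSK cells without 4OHT to AKT-activated cells, a range of 0.27. Got2, its mitochondrial counterpart, lay at 3.39, 3.34, 3.32 and 3.22. Psat1, which transfers the amino group of glutamate to phosphohydroxypyruvate in serine synthesis and yields αKG, lay at 3.28, 3.24, 3.33 and 3.43. AKT-activated cells were thus highest for Got1 and Psat1 and lowest for Got2, with differences from AKT-nonactivated cells of 0.14, 0.10 and −0.09, all within the software's error. A further Psat1 probe differed by 0.08 between AKT-activated and AKT-nonactivated cells and by −0.35 with 4OHT in OSK cells.

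Glutamate is oxidised to αKG by glutamate dehydrogenase, encoded by Glud1. Its 3′ probe, which stands for the gene, lay at 4.79 and 4.85 in OSK cells without and with 4OHT, 4.60 in AKT-nonactivated and 4.28 in AKT-activated cells, and its 5′ probe at 4.51, 4.62, 4.46 and 4.16. Both probes were lowest in AKT-activated cells. The distance from AKT-nonactivated cells was −0.32 and −0.29, and that from OSK cells with 4OHT was −0.58 and −0.45, the former just under 1.5-fold (a fold of 0.671). Gls2, the liver-type glutaminase, was dim. It lay at −3.31 and −3.54 in OSK cells without and with 4OHT, −2.94 in AKT-nonactivated and −3.67 in AKT-activated cells. Its AKT-nonactivated array was the high one, and AKT-activated cells lay 0.13 below OSK cells with 4OHT. The difference of −0.73 between AKT-activated and AKT-nonactivated cells had a software error of 0.31, and it was −0.29 after normexp background correction and quantile normalization. D2hgdh, the mitochondrial enzyme that oxidises D-2-hydroxyglutarate back to αKG, lay at −0.12, −0.27, −0.26 and −0.65. The AKT-activated array was the low one for this probe, by 0.39 against AKT-nonactivated cells. Its further probes gave −0.16 and −0.01 for that difference, so that the mean of its probes gave −0.19.

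Within the TCA cycle group, 1 of 21 genes was at least 1.5-fold higher in AKT-activated than in AKT-nonactivated cells. This was Mdh1, whose enzyme is cytosolic and not part of the mitochondrial cycle. At least 1.5-fold lower were 0 of 21 (all genes, 5.06% higher and 4.64% lower), so that 1 of 21 is near the share of all genes. The median difference of the 21 genes was 0.10, and 17 of 21 lay above 0 (all genes, 45.2%). Mdh1 is the cytosolic malate dehydrogenase of the malate-aspartate shuttle. Its level was 4.40 in OSK cells without and 4.43 with 4OHT, 4.07 in AKT-nonactivated cells and 4.73 in AKT-activated cells. The 1.59-fold difference lay between a low AKT-nonactivated and a high AKT-activated array, since AKT-activated cells exceeded OSK cells with 4OHT by 0.30 and AKT-nonactivated cells lay 0.33 below OSK cells without 4OHT. Pcx, the pyruvate carboxylase that refills oxaloacetate, was named after its values were seen because its AKT-nonactivated array was also the low one. It lay at 3.26, 3.18, 2.84 and 3.30, and the arrays other than the AKT-nonactivated one lay within 0.12 of each other, so that no high AKT-activated array was seen as for Mdh1. Mdh2, the mitochondrial malate dehydrogenase, lay 0.18 higher in AKT-activated than in AKT-nonactivated cells and had a range of 0.24.

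The isocitrate dehydrogenases, which make αKG from isocitrate, did not move as one group. Idh1, the cytosolic NADP-dependent enzyme, lay at 0.28, 0.55, 0.50 and 0.75, lowest in OSK cells without 4OHT and highest in AKT-activated cells. The difference with 4OHT was 0.26 in OSKA cells and 0.27 in OSK cells. With spike-in scaling the value in OSK cells was −0.04, a shift shared by all genes, whose median was then −0.31, and the value in OSKA cells stayed at 0.26. Idh2, the mitochondrial NADP-dependent enzyme, lay at 5.52, 5.41, 5.32 and 5.44, within a range of 0.20. Of the NAD-dependent complex, the catalytic subunit gene Idh3a lay at 2.47, 2.31, 2.24 and 2.46. Its AKT-activated array thus stood 0.22 above the AKT-nonactivated one and level with OSK cells without 4OHT. Idh3b (3.60, 3.42, 3.41 and 3.20) and Idh3g (4.85, 4.77, 4.64 and 4.42), the genes of the other subunits, were lowest in AKT-activated cells, by 0.21 and 0.22 against AKT-nonactivated cells. Subunits of one complex therefore differed in sign, with no difference reaching 1.5-fold.

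αKG is consumed in the cycle by the oxoglutarate dehydrogenase complex, whose first component is encoded by Ogdh. Ogdh lay at 3.71, 3.82, 3.86 and 4.13, highest in AKT-activated cells and 0.27 above AKT-nonactivated cells. Its further probes gave 0.30 and 0.55 for that difference, and all 3 probes were highest in AKT-activated cells. The other components of the complex, Dlst and Dld, differed by −0.06 and 0.14. Citrate synthase (Cs) and cytosolic aconitase (Aco1) each differed by 0.01. The succinyl-CoA ligase genes Suclg1, Suclg2 and Sucla2 differed by 0.01 to 0.10, the succinate dehydrogenase genes Sdha, Sdhb, Sdhc and Sdhd by 0.01 to 0.15, and fumarase (Fh1) by −0.08. All of these lay within the software's error of 0.20, and Fh1 had the smallest range of the list over the 4 arrays (0.08).

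For the TCA cycle, the high array was most often that of OSK cells without 4OHT and the low array that of AKT-nonactivated cells. The former was the highest of the 4 for 12 of 21 TCA cycle genes and for 14 of all 31 genes (all genes, 31.6%). AKT-nonactivated cells were lowest for 11 of the 21 and for the same number of the 31 (all genes, 18.8%). Suclg2 gave the largest such difference in the cycle, with 0.06 in OSK cells without 4OHT and −0.31, −0.35 and −0.33 on the other arrays. Aco1 had the same form, at −1.91 against −2.18, −2.17 and −2.16. Over the 21 genes the median was −0.10 for 4OHT in OSK cells and −0.17 for AKT-MER without 4OHT. The macrophage markers moved with this array in the opposite direction. Their median was 0.51 for 4OHT in OSK cells (7 of 8 above 0) and 0.52 for AKT-MER without 4OHT (7 of 8 above 0), whereas the epithelial markers moved in the same direction as the TCA cycle genes. The medians of the epithelial markers were −0.34 for 4OHT in OSK cells (7 of 8 below 0, 2 at least 1.5-fold lower) and −0.80 for AKT-MER without 4OHT (7 of 8 below 0, 5 at least 1.5-fold lower). The fibroblast markers had medians of 0.10 for 4OHT in OSK cells (6 of 10 above 0) and 0.26 for AKT-MER without 4OHT (8 of 10 above 0). The part of these cell types in the TCA cycle values was not tested. Between AKT-activated and AKT-nonactivated cells the median of the macrophage markers was −0.17, with 2 of 8 above 0.

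The neighbouring genes of the pathway were taken from lists of other enzymes, of the pyruvate dehydrogenase complex and its regulators, of carriers and transporters, and of mitochondrial content. Between AKT-activated and AKT-nonactivated cells, 2 of 19 measured other enzymes were at least 1.5-fold higher, and the median was 0.07. For this and the following lists, the shares of all genes are again 5.06% higher and 4.64% lower, and counts of 1 or 2 in lists this short are given as a description. The higher ones were Psph, the phosphatase that ends serine synthesis (1.35, 1.36, 1.49 and 2.22, from OSK cells without 4OHT to AKT-activated cells), and Adhfe1, a transhydrogenase that couples 4-hydroxybutyrate oxidation to the reduction of αKG to D-2-hydroxyglutarate. Adhfe1 was dim and differed by 0.60 in OSKA and by −0.73 in OSK cells with 4OHT.

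In the pyruvate dehydrogenase list, 1 of 10 genes was at least 1.5-fold lower and none was higher. This was Pdp1, a phosphatase that activates the complex, with a difference of −0.66. Of the carriers and transporters, 1 of 14 was at least 1.5-fold higher, Slc13a3, a sodium-coupled dicarboxylate transporter of the plasma membrane that carries succinate and αKG. Slc13a3 lay at −0.51, −0.33, −0.41 and 0.93, so that the AKT-activated array was high by itself, with a difference of 1.35. Of the mitochondrial content genes, 1 of 15 was at least 1.5-fold higher, Ppargc1a (0.72), a coactivator of mitochondrial biogenesis, which was dim and differed by 0.49 with 4OHT in OSK cells. The medians of these lists were −0.07, 0.10 and 0.05. Aadat, Pck1 and Slc25a21 were not well above background on any array.

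**Figure D4:**
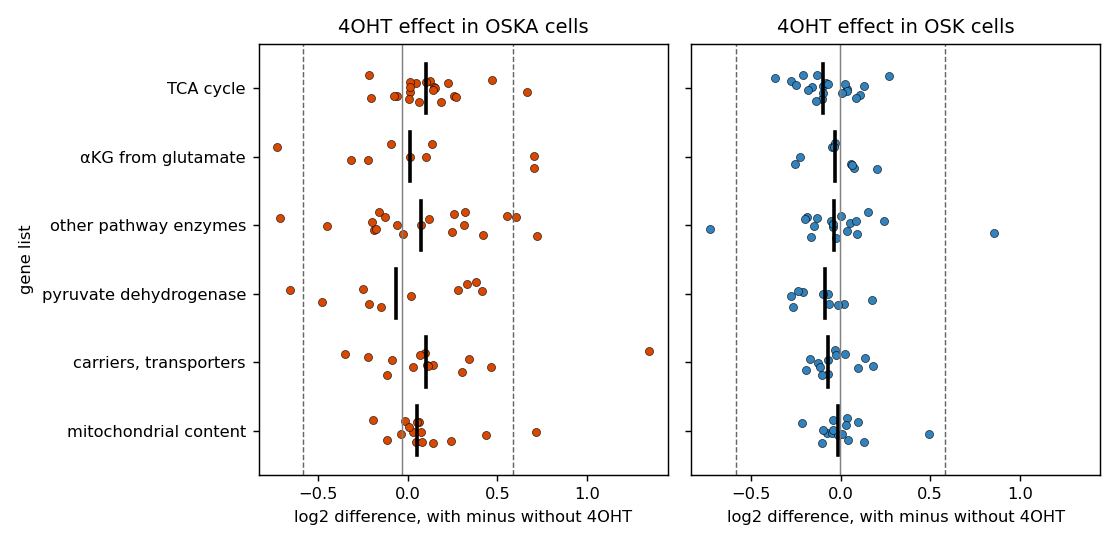
Log2 difference with minus without 4OHT in OSKA cells (left) and OSK cells (right) for the genes of 6 lists, with 1 point per gene, a thick bar at the median of each list, a grey line at the median of all genes measured and dashed lines at 1.5-fold. The list medians lie between −0.07 and 0.10 in OSKA cells. The point at 1.35 is Slc13a3.

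Because Gpt2 and Bcat1 were highest on the same array, their promoter windows are shown. They run from 250 bases before to 50 bases after an annotated start in RefSeq (GRCm38.p6), and 27 of the 31 genes had at least 1 window, 37 windows in all. The Gpt2 window is chr8:85492326-85492625 on the plus strand, and the Bcat1 windows, for 2 annotated starts, are chr6:145076108-145076407 and chr6:145048763-145049062 on the minus strand. The motifs searched on both strands were the E-box CACGTG, bound by MYC and related factors, and the C/EBP-ATF response element TGATGNAAN, bound by ATF4. CACGTG was in 7.15% of the 32851 windows of the assembly and in 4 of the 37, which belonged to Ogdh and Pcx. TGATGNAAN was in 3.95% of all windows and in 1 of the 37, that of Got1, so that no window of these genes held both. Neither motif was in the windows of Gpt2 and Bcat1, which therefore carry no capitals.
Gpt2: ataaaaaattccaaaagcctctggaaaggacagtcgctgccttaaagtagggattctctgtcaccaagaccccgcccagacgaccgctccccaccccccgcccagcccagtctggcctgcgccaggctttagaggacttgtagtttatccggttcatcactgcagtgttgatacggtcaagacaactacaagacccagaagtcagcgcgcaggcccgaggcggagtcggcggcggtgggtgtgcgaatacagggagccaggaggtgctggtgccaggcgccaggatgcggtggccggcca
Bcat1, 5′ start: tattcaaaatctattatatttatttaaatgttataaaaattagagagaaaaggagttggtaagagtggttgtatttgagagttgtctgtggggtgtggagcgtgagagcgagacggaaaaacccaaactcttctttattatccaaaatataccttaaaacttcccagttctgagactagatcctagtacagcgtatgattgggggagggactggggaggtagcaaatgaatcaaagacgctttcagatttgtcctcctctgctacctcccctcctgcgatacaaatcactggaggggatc
Bcat1, 3′ start: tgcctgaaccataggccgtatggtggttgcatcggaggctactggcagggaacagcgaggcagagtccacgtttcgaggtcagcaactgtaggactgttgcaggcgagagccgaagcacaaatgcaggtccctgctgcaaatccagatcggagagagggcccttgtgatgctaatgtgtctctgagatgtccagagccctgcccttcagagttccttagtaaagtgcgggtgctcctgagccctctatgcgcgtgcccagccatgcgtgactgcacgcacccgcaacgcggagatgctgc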

How the data were processed

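Groups were taken from the sample titles, with 1 array per group and all 4 arrays on 1 slide, so slide position and group cannot be told apart. The authors labelled cRNA from 100 ng of total RNA with Cy3 and scanned the arrays in 1 channel. The deposited intensity of each spot had been corrected by the authors for background and spatial trend with Feature Extraction 10.7.3.1 and was not normalized between arrays. The values of the deposited series matrix were this intensity after rounding (ratio to the scanner value 0.995 to 1.005).

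The log2 intensity was reduced by the 75th percentile of each array over noncontrol spots that carried no outlier mark, spots of a probe were averaged, and the probe brightest on average stood for its gene. A difference needed a probe well above background on each of the arrays compared, and 4 contrasts were formed as one array minus another. Genes were counted at 1.5-fold (2-fold as an alternative). No test was run, and precision is limited by the number of arrays. The members and lists were chosen with earlier results of these data known. All members were accounted for. Those past 1.5-fold and those that make or use αKG were given on every array, and genes of other lists were named where past 1.5-fold between AKT-activated and AKT-nonactivated cells. Values of some genes of these other lists are not reported here. Of the probes, 27509 (49.4%) were named through a RefSeq accession (GRCm38.p6), and the match of probes to related genes or pseudogenes was not analysed here. The scripts were tested on simulated data. Alternatives used limma 3.58.1 in R 4.3.3 (normexp with offset 50, quantile normalization) and Python 3.11.15 with pandas 2.3.3.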

Additional observations from a re-analysis of the deposited data

Results flagged for a closer look

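For 5 genes the 4OHT difference had opposite signs in OSKA and OSK cells, with each difference beyond the 0.095 of repeated spots. That was 16.1% of the list and 24.8% of the 19599 genes measured on all 4 arrays, and with spike-in scaling, which lowers the values of OSK cells with 4OHT, it was 14 of 31 genes of the list and 29.4% of all genes. The difference between the effects (OSKA minus OSK, log2) was 0.96 for Bcat1, 0.40 for Dld, 0.39 for Idh3a, 0.24 for Sucla2 and 0.23 for Idh2, and in each case the value in OSKA cells was the one above 0. With 1 array per group these differences were not tested. Against the software's error of 0.20, only Bcat1 had both differences beyond it, while at least 1 of the differences of Dld, Idh3a, Sucla2 and Idh2 lay within it. For Bcat1 the further probes gave the same signs (0.70 in OSKA cells, −0.45 and −0.52 in OSK cells), and for Dld the further probe gave 0.09 and −0.36.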

How the results depend on the processing

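Of 104 recomputed counts and medians, 94 moved by less than the limits set for them. Many of these could hardly move. All probes of the list passed the background filter, so changing that filter returned the same values for the list. The series matrix held the same intensities after rounding, and median centring shifts each array by a constant. The number 94 is therefore no measure of robustness. At 2-fold, 0 genes were higher and 0 lower for 4OHT in OSKA cells (all genes, 2.01% and 0.899%), and 0 were higher for AKT-MER with 4OHT (all genes, 1.92%). Normexp with quantile normalization left 0 genes at least 1.5-fold lower in OSKA cells, because Gls2 came to −0.29. With spike-in scaling, the median was −0.38 for 4OHT in OSK cells (2 of 31 genes at least 1.5-fold lower, all genes 11.3%), −0.54 for AKT-MER without 4OHT (13 of 31, all genes 28.4%) and −0.10 for AKT-MER with 4OHT (2 of 31, all genes 8.95%), which turned the sign of the last. The median of all genes under that scaling is given in the report. Over 8 alternatives, the difference between AKT-activated and AKT-nonactivated cells ranged from 0.67 to 0.73 for Gpt2, 0.68 to 0.73 for Bcat1, 0.66 to 0.72 for Mdh1 and −0.33 to −0.31 for Glud1. The mean of all probes gave 0.37 for Ogdh and −0.19 for D2hgdh. For the dim Gls2 probe, signal over background limits what its difference can show. No paired analysis was possible because each group had 1 array.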
